A study of Arabidopsis thaliana with 24 samples.

Results

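The genes that flank FLC on chromosome 5 of Arabidopsis thaliana are described here by how their transcripts differed between tetraploid and diploid seedlings, and by whether they shared the difference of FLC itself. The members were all listed genes with plain identifiers from AT5G08700 to AT5G11500 in locus order, without FLC (AT5G10140) and without 6 genes of the actin, cellulose synthase, histone H3 and KNOX families. This rule used no measured value. It found 241 genes among 24900 identifiers listed in either table, 226 of them in the Ler table and 234 in the Col-0 table, with 219 in both. Of the members, 105 had identifiers below that of FLC and 136 above it, 237 were found in the gene table of the assembly TAIR10.1, and 95 had a gene symbol there. Members are named by that symbol, AT5G10760 is called AED1 after a synonym in the same table, and the others are given by identifier alone.

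RNA-seq libraries came from seedlings 2 weeks old of 4 groups, with 2 libraries each: tetraploid (4x) Ler, diploid (2x) Ler, tetraploid (4x) Col-0 and diploid (2x) Col-0. The growth protocol names 22 °C and days with 16 h or 8 h of light, without saying which day length these libraries had, and the labels do not say how the tetraploid lines were made. The series also holds 16 ChIP-seq libraries against histone H3 or its trimethylated lysine 27 (H3K27me3), which were not analysed here. What was deposited for RNA are 2 tables of the authors' DESeq2 comparisons, with a mean normalized count, a log2 fold change and its standard error for each gene but no value for a single library. The level in each ploidy is therefore given as the normalized count implied by the authors' mean and fold change, a count per library that is not scaled by gene length. The order of subtraction is not stated in the tables and was read as tetraploid over diploid, since FLC is known in this study to be higher in tetraploid Col-0, and ESP is known to be low and ESM1 high in diploid Col-0. Those grounds are for Col-0 alone. In the Ler table neither FLC nor ESM1 was called, so the same order was assumed for Ler from the like naming and layout of the tables. Every direction given rests on that reading, so the direction of FLC is no separate result, and each comparison of directions or differences between ecotypes rests on the assumption for Ler. ESP had an implied normalized count of 64546 in tetraploid and 524 in diploid Col-0, against 48260 and 32266 in Ler. ESM1 had 992 in tetraploid and 15073 in diploid Col-0, against 900 and 855 in Ler. At these 2 genes tetraploid Col-0 was thus nearer to Ler than to diploid Col-0. At FLC it was not, with 964 in tetraploid and 156 in diploid Col-0, against 127 and 95.1 in Ler. The ecotypes were normalized separately, so their counts compare only roughly. Whether the Col-0 lines differ in genotype besides ploidy was not tested, and "ploidy change" here means the difference between the lines. Each ± is the authors' standard error, and "called" means an adjusted p under 0.05 over all genes of the table.

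FLC encodes a MADS-box transcription factor that holds back flowering by repressing floral integrator genes, and its level is set through chromatin: active histone marks in autumn, and Polycomb-deposited H3K27me3 after cold. Polycomb silencing can spread over a domain, and antisense transcripts cross the FLC locus, so the genes next to it are of interest as a test of how far a change in FLC reaches. Genes directly beside FLC were found in earlier work to be repressed with it by prolonged cold. Ler is a rapid-cycling ecotype whose FLC allele is weak.

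The mean library total was 22138532 normalized reads in Ler and 22343366 in Col-0, with size factors up to 1.17 times apart in Ler and 1.25 times in Col-0. Transcripts of green tissue dominated as labelled, with RBCS1A, RCA and LHCB1.3 at mean counts of at least 231748, whereas listed markers of root, flower, seed and pollen had mean counts of at most 14.0. A member's mean count had a median of 176 in Ler and 176 in Col-0, and 135 and 139 members reached 100. At that level a member's fold change had a median standard error of 0.16 in Ler and 0.15 in Col-0 on the log2 scale. The labels do not tie the libraries of a group to separate cultures, so the p-values may reflect only technical spread. The root markers RHD6 and EXPA7 were listed in neither ecotype, so how much root tissue was sampled is not known. In seedling tissue of mixed cell types, fewer cells of a type and less RNA per cell cannot be told apart.

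The gene directly above FLC in locus order, AT5G10150, moved against FLC in Col-0. FLC had an implied normalized count of 964 in tetraploid and 156 in diploid Col-0, while AT5G10150 had 749.7 in tetraploid and 1146 in diploid Col-0. In the authors' deposited table, AT5G10150 fell in tetraploid Col-0 (log2 fold change −0.61 ± 0.12, adjusted p = 1.0e-05), a level 1.53-fold lower, where FLC was higher by 2.63 ± 0.17. In Ler, AT5G10150 had an implied normalized count of 453 in tetraploid and 655 in diploid seedlings, and the authors' deposited table called it lower there as well (−0.53 ± 0.14, adjusted p = 0.0081). Between ecotypes its change differed by 0.08 ± 0.19, Ler minus Col-0, on the log2 scale (95% interval −0.29 to 0.45, adjusted p = 0.94). The call of AT5G10150 held in both tables under each of the 5 other adjustments, filters and adjusted p thresholds tried. Its changes were smaller than 2-fold in both ecotypes, so it drops out where a change of that size is asked for. FLC was not called in Ler in the authors' deposited table (0.41 ± 0.29, adjusted p = 0.56), with an implied normalized count of 127 in tetraploid and 95.1 in diploid seedlings, so the nearest gene was called where FLC was not.

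**Figure D1:**
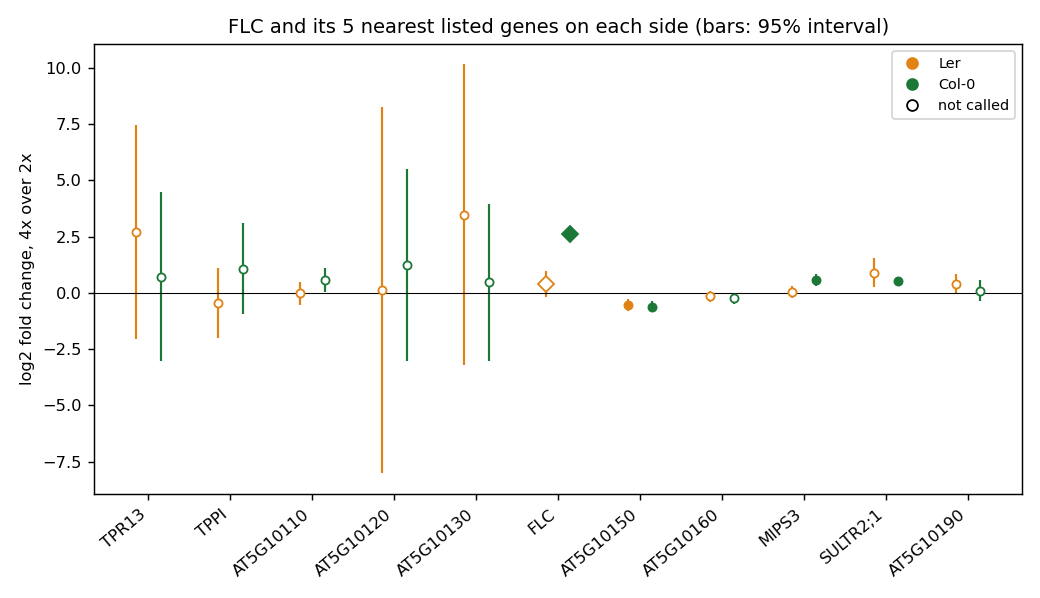
Log2 fold change, tetraploid over diploid, of FLC (diamonds) and the 5 nearest listed genes on each side, in locus order from left to right, for Ler (orange) and Col-0 (green). Bars are 95% intervals from the authors' standard errors and open symbols were not called. AT5G10150 lies below 0 in both ecotypes, FLC lies at 2.63 in Col-0, and AT5G10130, AT5G10120 and TPR13 have by far the widest intervals.

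On the other side of FLC the 2 nearest genes had too few reads for a moderate change to be seen. AT5G10130, the gene directly below FLC in locus order, had a mean count of 0.982 in Ler and 3.24 in Col-0. Its log2 fold change in Col-0 was 0.47 ± 1.78 in the authors' deposited table (adjusted p = 0.94), with a 95% interval of −3.03 to 3.97 that holds both 0 and the value of FLC, and the authors gave it no adjusted p in Ler. AT5G10120, the next, had a mean count of 0.521 in Ler and 2.23 in Col-0, and TPR13 (AT5G10090), a tetratricopeptide repeat gene and the fifth, had 1.78 and 2.58. TPPI (AT5G10100), which encodes a trehalose-6-phosphate phosphatase, had a mean count of 9.35 in Col-0 and was not called in the authors' deposited table (1.08 ± 1.03, adjusted p = 0.62). The third gene, AT5G10110, was measured well enough to set apart from FLC: it had an implied normalized count of 156 in tetraploid and 104 in diploid Col-0, and the authors' deposited table gave 0.58 ± 0.28 (adjusted p = 0.17), with a 95% interval of 0.03 to 1.13. In Ler the same gene gave −0.01 ± 0.26 in the authors' deposited table.

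Beyond AT5G10150 on the higher-numbered side, a pair of neighbouring metabolic genes rose in tetraploid Col-0. MIPS3 (AT5G10170), a myo-inositol-1-phosphate synthase gene of the first step of inositol synthesis, had an implied normalized count of 703 in tetraploid and 472 in diploid Col-0 (0.58 ± 0.14, adjusted p = 4.8e-04 in the authors' deposited table). SULTR2;1 (AT5G10180), a low-affinity sulfate transporter gene of the vasculature, had 3350.1 in tetraploid and 2291 in diploid Col-0 (0.55 ± 0.09, adjusted p = 6.6e-08 in the authors' deposited table). Their rises were 1.49-fold and 1.46-fold, against 6.17-fold for FLC, and their 95% intervals ended at 0.85 and 0.73 on the log2 scale. In Ler, MIPS3 gave 0.04 ± 0.13 (adjusted p = 0.96) and SULTR2;1 0.91 ± 0.33 (adjusted p = 0.086) in the authors' deposited table, neither called. The test of the ecotype difference missed the threshold for both (adjusted p = 0.055 for MIPS3 and 0.71 for SULTR2;1). AT5G10160, between AT5G10150 and MIPS3, gave −0.15 ± 0.12 in Ler and −0.25 ± 0.12 in Col-0 in the authors' deposited table, and AT5G10190 gave 0.39 ± 0.23 and 0.11 ± 0.23, all without a call. AT5G10160 and MIPS3 overlap in the reference annotation, and FLC overlaps the non-coding transcript AT5G01675. The sources used here give no strand setting for counting, so reads of such pairs cannot be told apart. The same holds for these other called members that overlap an annotated neighbour: AT5G10410, GTE2, CYP81K2, AT5G10605, CYP81K1, AT5G11090, UAP56b and PPD5.

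No well measured neighbour shared the size of the FLC change in Col-0. Of 139 members with a mean count of at least 100, 0 had a 95% interval that reached the FLC log2 fold change of 2.63, where 0.243% of all such genes did. The highest upper bound among them was 1.18, and their log2 fold changes ran from −1.91 to 0.77. With a minimum mean count of 10, 3 of 192 members reached it, against 1.49% of all such genes. These were AT5G09540, AT5G10570 and AT5G10660, named after their values were seen, and the authors' deposited table gave 1.73 ± 0.74, 1.89 ± 0.73 and 1.46 ± 0.85 for them, with adjusted p between 0.057 and 0.30. Without a minimum, 40 of 234 members reached it, at a median mean count of 1.18, against 15.5% of all genes. In Ler, where FLC itself was not called, 50 of 135 members with a mean count of at least 100 reached its value of 0.41, against 30% of all such genes. Without a minimum, 134 of 226 did, against 54.9% of all genes in Ler. These counts set each member against the estimate of FLC and left out the error of FLC itself. The 95% interval of FLC ran from −0.16 to 0.99 in Ler, so the Ler counts do not measure a shared change. In Col-0 it ran from 2.28 to 2.97.

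Farther out, from the 6th to the 25th listed gene on each side, 1 gene was called in either ecotype, RING1 in Ler. DOT3 (AT5G10250), a gene of leaf vein patterning, came nearest to the threshold in Col-0, with an implied normalized count of 52.1 in tetraploid and 102 in diploid seedlings. It gave −0.97 ± 0.37 in the authors' deposited table (adjusted p = 0.056) and is not listed for Ler. ASN3 (AT5G10240), an asparagine synthetase gene, had 759.8 in tetraploid and 832 in diploid Ler, and 854 in tetraploid and 701 in diploid Col-0. For ASN3 the authors' deposited table gave −0.13 ± 0.13 in Ler (adjusted p = 0.73) and 0.28 ± 0.13 in Col-0 (adjusted p = 0.12). AT5G10070 gave 0.00 ± 0.14 in Ler and 0.32 ± 0.16 in Col-0 in the authors' deposited table, uncalled in both (adjusted p = 0.18 in Col-0). NRPB4 (AT5G09920), which encodes a subunit of RNA polymerase II, gave 0.09 ± 0.15 and −0.16 ± 0.17 in Ler and Col-0 in the authors' deposited table, and the histidine synthesis gene HPA1 (AT5G10330) gave −0.10 ± 0.12 and 0.03 ± 0.11. EMB3010 (AT5G10360), with mean counts of 10036 in Ler and 10284 in Col-0, gave −0.13 ± 0.08 (adjusted p = 0.41) and 0.04 ± 0.06 (adjusted p = 0.81) in the authors' deposited table. The annexin genes ANN6 (AT5G10220) and ANNAT7 (AT5G10230) had mean counts of 0.529 and 0.438 in Col-0 and are not listed for Ler. DOT3, ASN3, AT5G10070, NRPB4, HPA1, EMB3010 and the annexin genes were chosen after their values were seen.

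Over the whole region in Ler, 6 of 185 members were called in the authors' deposited table, 3 higher and 3 lower, or 3.24%, against 5.1% of all genes tested (3.19% higher and 1.91% lower). In Col-0, 24 of the 214 members with an adjusted p in the deposited Col-0 table were called, of which 12 rose and 12 fell in the tetraploid. That is 11.2% of the members, against 15.4% of all genes tested (7.13% higher and 8.23% lower) and 15.3% of the other genes of chromosome 5. The median log2 fold change of the tested members was −0.01 in Ler and 0.02 in Col-0, beside −0.01 and 0.00 over all genes tested. In Col-0 the lower-numbered side of FLC had 5.38% called and the higher-numbered side 15.7%. Taken over both sides, the members' shares were thus below those of their tables in both ecotypes, and that difference was not tested. The higher-numbered side in Col-0, at 15.7%, was not below. At a mean count of 1000 or more, 2 of 38 members (5.26%) were called in Ler and 9 of 37 (24.3%) in Col-0. All genes of that depth gave 10.3% and 29.4%. Between 100 and 1000 the members' shares were 4.12% (4 of 97) and 11.8% (12 of 102). All genes there gave 4.30% and 15.4%, so in Ler the shares were close. With Wald statistics scaled to their own spread over all genes (an empirical null), 14 of the 24 Col-0 calls remained, 6 higher and 8 lower. Summed over all members, the implied normalized counts were 150298 in tetraploid and 150519.5 in diploid Ler, a ratio of 0.999, beside 0.988 over all genes. In Col-0 they were 152065 in tetraploid and 149555 in diploid Col-0, a ratio of 1.02, beside 0.993 over all genes.

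**Figure D2:**
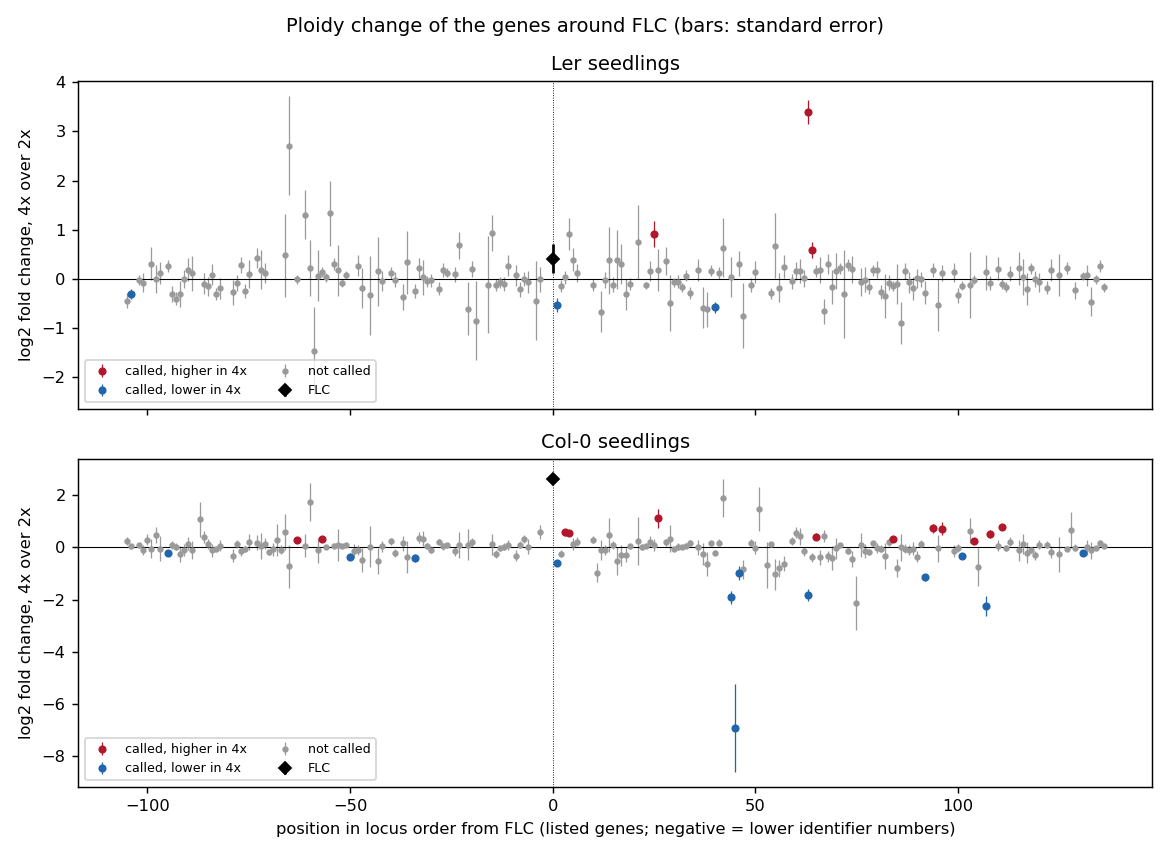
Log2 fold change, tetraploid over diploid, against position in locus order from FLC for members with a mean count of at least 10, Ler above and Col-0 below. Points are members with bars of 1 standard error, red points were called higher in the tetraploid and blue points lower, and the black diamond is FLC. FLC lies above every member in Col-0, and called members of both directions occur on both sides of FLC in Col-0.

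The share of members called near FLC was close to the background. Among the 10 nearest listed members on each side, 1 of 15 tested were called in Ler and 3 of 18 in Col-0 (16.7%, against 15.4% of all genes), the Col-0 calls being AT5G10150, MIPS3 and SULTR2;1. From the 11th to the 25th member on each side the counts were 1 of 26 in Ler and 0 of 29 in Col-0, where DESeq2 gave 1 with an unadjusted p under 0.05. From the 26th to the 50th they were 1 of 39 and 6 of 47, and beyond that 3 of 105 and 15 of 120. The signs near FLC leaned up in Col-0, with 2 of them called: 15 of the 18 tested members nearest to it had a positive log2 fold change, with a median of 0.30, against 49.6% of all genes and a median of 0.00. In Ler 5 of 15 were positive, with a median of −0.02. In Col-0 the next 15 on each side had a median of 0.02. Of the 18 nearest in Col-0, AT5G10130, AT5G10120, TPR13, TPPI and AT5G10210 were positive at mean counts of only 2.23 to 9.35. Their standard errors ran from 1.03 to 2.28. The upward lean and its median thus rest in part on genes with very few reads. On the lower-numbered and the higher-numbered side, Ler had 1 of 76 and 5 of 109 members called (1.32% and 4.59%, against 5.1% of all genes). Col-0 had 5 of 93 and 19 of 121 (5.38% and 15.7%, against 15.4% of all genes).

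**Figure D3:**
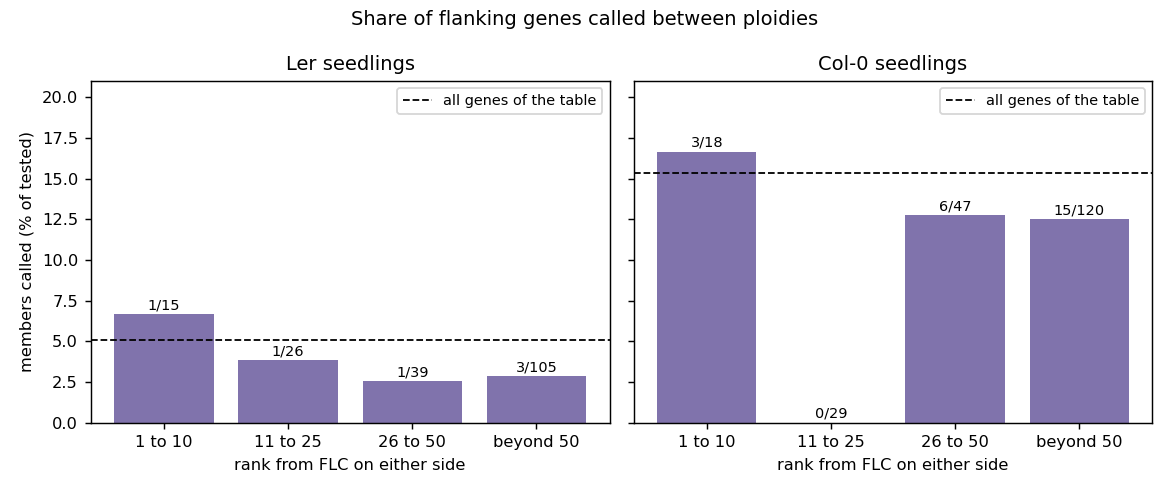
Share of tested members called between ploidies (percent, adjusted p under 0.05) by rank from FLC on either side, Ler left and Col-0 right, with the number called over the number tested above each bar. The dashed line is the share over all genes of the table. The nearest band lies 6.67% high in Ler and 16.7% in Col-0, just above each line, and rests on 1 and 3 genes.

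Of the 12 members that rose in tetraploid Col-0, 2 lay on the lower-numbered side of FLC and 10 on the higher-numbered side, and 1 rose at least 2-fold. HY5 (AT5G11260), the bZIP transcription factor that promotes light responses in seedlings, had an implied normalized count of 1377 in tetraploid and 806 in diploid Col-0 (0.77 ± 0.11, adjusted p = 3.4e-10 in the authors' deposited table). AT5G11090 followed with 488 in tetraploid and 294 in diploid Col-0 (0.73 ± 0.17 in the authors' deposited table). MTHSC70-2 (AT5G09590), a mitochondrial HSP70 chaperone gene, rose by 0.33 ± 0.08 and AT5G09510 by 0.29 ± 0.08 in the authors' deposited table, with mean counts of 2075 and 3147. AT5G11240 rose by 0.51 ± 0.14 and AT5G10960 by 0.32 ± 0.10 in the authors' deposited table, calls that the empirical null ended (adjusted p = 0.060 and 0.13). AT5G10410 was the rise of at least 2-fold, with 103 in tetraploid and 47.8 in diploid Col-0 (1.10 ± 0.37, adjusted p = 0.023 in the authors' deposited table). It overlaps AT5G10420 in the reference annotation, and the empirical null ended its call (adjusted p = 0.19, where the others gave 0.020 to 0.025). Besides MIPS3, SULTR2;1 and UAP56b, AT5G10780 (0.39 ± 0.14) and the sucrose-phosphate synthase gene SPS2F (0.71 ± 0.24) rose in the authors' deposited table.

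Of the 12 members that fell in tetraploid Col-0, 6 fell at least 2-fold. With the 1 such rise they made 7 of 214 tested members, where 5.11% of all tested genes were called with a change of that size. A run of 3 neighbours fell together: CYP81K2 (AT5G10600) and CYP81K1 (AT5G10610), cytochrome P450 genes of the CYP81 family, and AT5G10605 between them. CYP81K2 had an implied normalized count of 80.9 in tetraploid and 303 in diploid Col-0 (−1.91 ± 0.25, adjusted p = 7.9e-13 in the authors' deposited table). CYP81K1 had 103 in tetraploid and 207 in diploid Col-0 (95% interval of the log2 fold change −1.52 to −0.48, adjusted p = 0.0018 in the authors' deposited table). AT5G10605 had no implied reads over the tetraploid Col-0 libraries and 49.2 over the diploid ones, at least 14.6-fold lower when the tetraploid group is set to its floor of 3 counts (adjusted p = 5.9e-04 in the authors' deposited table). It overlaps CYP81K2 in the reference annotation, and their reads cannot be told apart without strand. It was the 1 called member of 24 without reads in a ploidy, against 147 of 3290 called genes in the whole Col-0 table. The gene after the run, AT5G10620, gave −0.84 ± 0.36 in the authors' deposited table and was not called (adjusted p = 0.10). This run lay 43 to 45 listed members above FLC in Col-0, and it was the longest among the members in either table.

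Other falls in Col-0 stood alone. AT5G11230 had an implied normalized count of 26.9 in tetraploid and 127 in diploid Col-0 (−2.24 ± 0.39, adjusted p = 2.0e-07 in the authors' deposited table). AED1 (AT5G10760), whose name records a protein of the apoplast that depends on the immune regulator EDS1, had 147 in tetraploid and 518 in diploid Col-0 (−1.82 ± 0.23 in the authors' deposited table). AT5G11070 had 388 in tetraploid and 866 in diploid Col-0 (−1.16 ± 0.15 in the authors' deposited table). The smaller falls were UAP56a (AT5G11170), AT5G09820, PPD5 (AT5G11450), a gene for a PsbP-domain protein of the chloroplast, AAP2 (AT5G09220), an amino acid permease gene, and AT5G09670, and in the authors' deposited table they ranged from −0.42 (AT5G09820) to −0.24 (PPD5 and AAP2). UAP56a and UAP56b (AT5G11200) are copies of an RNA helicase gene of messenger RNA export and moved apart in the authors' deposited table, UAP56a by −0.34 ± 0.07 and UAP56b by 0.23 ± 0.07. Their sequences are near-identical, so both values are uncertain, since reads of the pair could have been split between them in counting. The calls of AT5G09820, PPD5, AAP2 and UAP56b ended under the empirical null, with adjusted p between 0.12 and 0.29. Those of AT5G09670, AT5G10780 and SPS2F ended with it too, and AAP2 also lost its call without the authors' filter on low counts (adjusted p = 0.053).

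In Ler, 3 members rose and 3 fell, and 1 change, that of AED1, was at least 2-fold, as 1.28% of all tested genes were called with such a change. AED1 had an implied normalized count of 562 in tetraploid and 53.5 in diploid Ler, 10.5-fold higher (3.39 ± 0.24, adjusted p = 9.3e-43 in the authors' deposited table). Its neighbour AT5G10770 had 597 in tetraploid and 397 in diploid Ler (0.59 ± 0.17, adjusted p = 0.013 in the authors' deposited table). RING1 (AT5G10380), which encodes a RING-finger ubiquitin ligase tied to programmed cell death, had 185 in tetraploid and 98.2 in diploid Ler (0.91 ± 0.26, adjusted p = 0.013 in the authors' deposited table). GTE2 (AT5G10550), a bromodomain protein gene, fell to 1282 in tetraploid Ler, against 1912 in diploid Ler (−0.58 ± 0.11 in the authors' deposited table, adjusted p = 4.8e-05), and AT5G10150 fell as described above. AT5G08720 was the third fall in the authors' deposited table (−0.31 ± 0.10, adjusted p = 0.046), a call that ended without the authors' filter on low counts, on recentring and under the empirical null (adjusted p from 0.057 to 0.094).

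**Figure D4:**
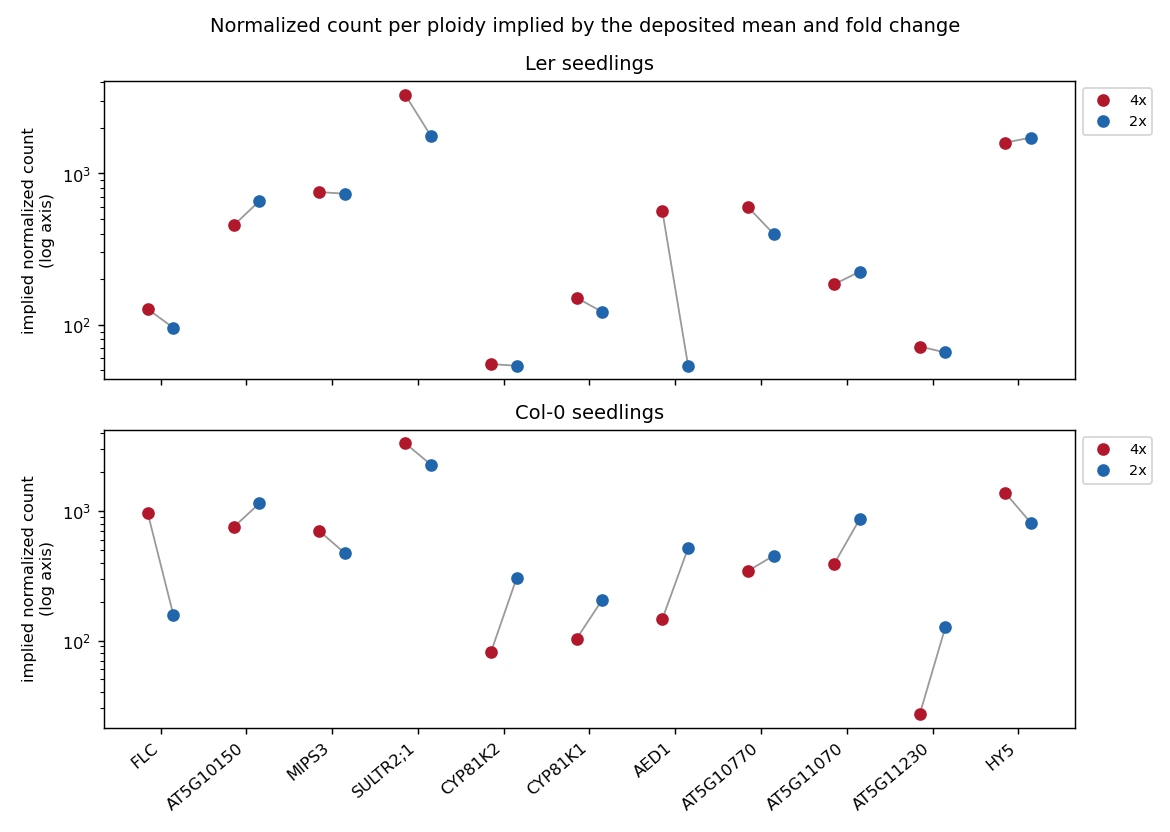
Normalized count per ploidy implied by the authors' mean and fold change, on a log axis, for FLC and 10 members named in the text, with Ler above and Col-0 below. Red points are tetraploid and blue points diploid seedlings, and no error is drawn because the tables hold no value for a single library. AT5G10150 is lower in the tetraploid in both panels, and AED1 is higher in tetraploid Ler and lower in tetraploid Col-0.

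The ploidy change of 13 of the 219 members listed in both tables differed between Ler and Col-0 (Wald test of the difference of the log2 fold changes, adjusted p under 0.05), 5.94% of them, against 8.71% of all shared identifiers. The Ler change lay above the Col-0 change for 7 and below it for 6, where the shares over all were 4.97% and 3.74%. FLC itself differed, with a Ler minus Col-0 difference of −2.21 ± 0.34 (adjusted p = 7.5e-09). None of the 13 was among the 25 members nearest to FLC on either side, where this Wald test gave 4 with an unadjusted p under 0.05. The genes AT5G10150 and AED1 were called in both tables, AT5G10150 in the same direction and AED1 in opposite directions. AED1 gave 3.39 ± 0.24 in Ler and −1.82 ± 0.23 in Col-0 in the authors' deposited table, and the difference of 5.21 ± 0.33 had an adjusted p of 2.7e-52. AT5G10770 was higher in tetraploid Ler (0.59 ± 0.17) and uncalled at −0.39 ± 0.17 in Col-0 in the authors' deposited table, with a difference of 0.98 ± 0.24 (adjusted p = 8.4e-04). HY5 gave −0.11 ± 0.10 in Ler and 0.77 ± 0.11 in Col-0 in the authors' deposited table, a difference of −0.88 ± 0.15 (adjusted p = 4.4e-07). AT5G11230 gave 0.13 ± 0.36 and −2.24 ± 0.39, and CYP81K2 0.04 ± 0.40 and −1.91 ± 0.25, in Ler and Col-0 in the authors' deposited table, with differences of 2.37 ± 0.53 and 1.94 ± 0.47 (adjusted p = 2.5e-04 and 9.7e-04). These 5 differences remained called under the empirical null and the other 8 did not.

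Across the 130 members whose mean count reached 100 in each table, the log2 fold changes of Ler and Col-0 had a Pearson r of −0.34, and of 0.08 without AED1, against 0.11 over 13324 genes of the same depth. The negative value thus rests on AED1. The sign was the same in both ecotypes for 62 of these members (47.7%), beside 52.3% of all genes of that depth. Neighbouring genes were weakly alike, in the region and elsewhere. For 82 pairs of neighbouring members in Ler and 86 in Col-0, where both genes had a mean count of 100 or more, r was 0.14 and 0.08, beside 0.05 and 0.11 over all such pairs of the genome. Points within an ecotype share the same 4 libraries, genes are not independent replicates, and these values are descriptions.

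**Figure D5:**
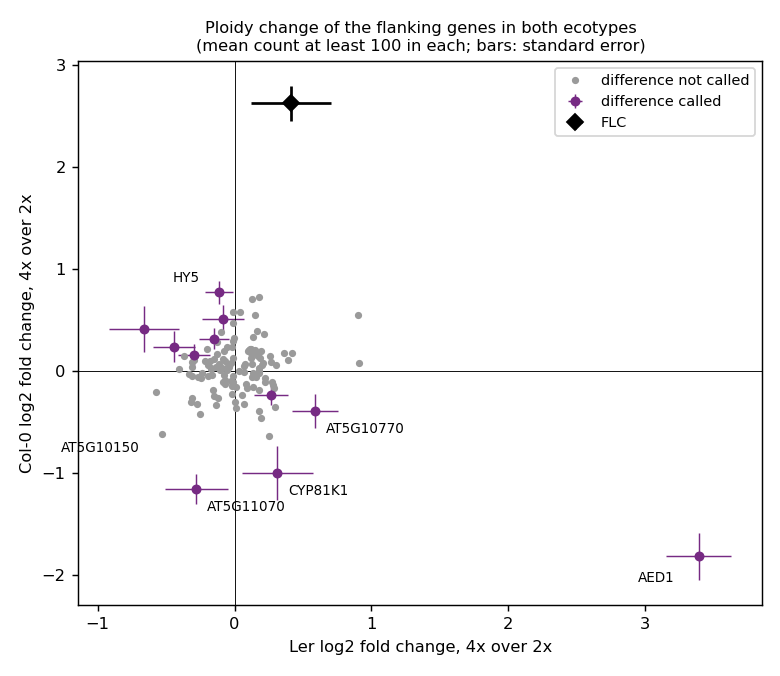
Log2 fold change, tetraploid over diploid, in Ler (horizontal axis) and Col-0 (vertical axis) for members whose mean count reached 100 in each table. Purple points with bars of 1 standard error differed between ecotypes (adjusted p under 0.05), grey points did not pass that test, and the black diamond is FLC. AED1 lies far to the lower right, and AT5G10150 among the grey points with both changes below 0.

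By role, the members hold a mixed set of genes, and the groups below were listed by identifier with results of these data already known. Over all genes tested, 5.1% were called in Ler and 15.4% in Col-0, and the groups are small. Among all genes with a mean count of 1000 or more, the shares were 10.3% and 29.4%. The median mean count in Col-0 was 849 for chromatin and RNA export and 3147 for ribosome and protein handling. Of 11 listed transcription regulators in Ler 0 rose and 1 fell (GTE2), and of 12 in Col-0 1 rose and 0 fell (HY5). The bZIP factor gene TGA4 (AT5G10030) gave 0.27 ± 0.21 and 0.09 ± 0.19, and the ERF-family gene SHN2 (AT5G11190) −0.13 ± 0.66 and 0.62 ± 0.47, in Ler and Col-0 in the authors' deposited table, without a call. Of 8 genes of chromatin and RNA export, 2 rose (AT5G10960 and UAP56b) and 1 fell (UAP56a) in Col-0 in the authors' deposited table. That is 37.5% of those tested, against 15.4% of all genes. The values of UAP56a and UAP56b are uncertain, as said above, and the calls of UAP56b and AT5G10960 ended under the empirical null. ATXR5 (AT5G09790), a histone H3 lysine 27 monomethyltransferase gene, was uncalled at 0.14 ± 0.28 and the export gene THO1 (AT5G09860) at −0.10 ± 0.13 in Col-0. In Ler DESeq2 called 0 of these 8 genes, with 0 at an unadjusted p under 0.05. Of 6 defence signalling genes in Ler 1 rose and 0 fell (RING1), and of 7 in Col-0 DESeq2 called 0, with 0 at an unadjusted p under 0.05. AED1, which was called in both tables, was not in this list or in any other group. The danger-peptide precursor gene PROPEP5 (AT5G09990) gave 0.93 ± 0.36 in Ler and 0.11 ± 0.41 in Col-0 in the authors' deposited table, neither called.

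Genes of cell cycle and growth were uncalled in both ecotypes: of 8, DESeq2 called 0 in Ler and 0 in Col-0, and 0 and 0 had an unadjusted p under 0.05. Among them, PAS2 (AT5G10480), a dehydratase gene of very-long-chain fatty acid synthesis, gave 0.07 ± 0.11 in Ler and 0.05 ± 0.09 in Col-0 in the authors' deposited table, with mean counts of 1567 and 1672. CYCD4;2 (AT5G10440), a D-type cyclin gene, gave −0.49 ± 0.56 and 0.33 ± 0.51 there. Of 7 transport genes, 1 rose and 1 fell in Col-0 (SULTR2;1 and AAP2, 33.3% of those tested), and in Ler DESeq2 called 0, with 2 at an unadjusted p under 0.05. Of 12 metabolic genes, 2 rose and 0 fell in Col-0 (MIPS3 and SPS2F, 16.7%), and in Ler DESeq2 called 0, with 0 at an unadjusted p under 0.05. PMDH2 (AT5G09660), the peroxisomal malate dehydrogenase gene with the highest mean count of the region, gave 0.08 ± 0.08 in Ler and 0.07 ± 0.06 in Col-0 in the authors' deposited table. Of 5 genes of ribosome and protein handling, 2 rose and 0 fell in Col-0 (AT5G09510 and MTHSC70-2, 40%), and in Ler DESeq2 called 0, with 0 at an unadjusted p under 0.05. At a mean count of 1000 or more, 29.4% of all Col-0 genes were called. Across these 7 groups, calls in Ler were made in 2 groups and calls in Col-0 in 5, beside a share of calls over all genes of 5.1% in Ler and 15.4% in Col-0.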

How the data were processed

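The submitters' processing notes name HISAT2, Subread and DESeq2 with the build TAIR10, without versions. Per the file headers, each deposited table holds a mean normalized count, a signal averaged by the authors over 4 libraries, with the authors' log2 fold change and its standard error on the log2 scale, a Wald statistic (a score) and the deposited Wald p-values with their Benjamini-Hochberg adjustment, left blank under a mean count of 7.23 in Ler and 1.16 in Col-0. Tables were normalized separately and the annotations behind them differ. With no counts per library, no count model was refitted, and the authors' test was used as the main test.

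Members and lists were chosen with earlier results of these data known. Implied counts were computed from the authors' mean and fold change, and size factors from the value of 1 read in 1 library, seen in the lowest means. Implied reads under 0.5 over a ploidy were taken as none, and the floor of 3 counts covers counting error only. Intervals are 1.96 standard errors on either side. A two-sided Wald test of Ler minus Col-0, with the root of the summed squared standard errors, was run over 21361 shared identifiers, with Benjamini-Hochberg adjustment, and the procedure was tested on simulated data. The empirical null centred Wald statistics on their median and divided them by their robust spread, which was 1.06 in Ler, 1.31 in Col-0 and 1.25 for the difference. Named genes are the 5 nearest on each side, up to 10 called in each direction per table, those called in both tables or differing between ecotypes, the longest run of calls, and called genes without reads in a ploidy. Names came from the TAIR10.1 gene table, and members were ranked from FLC by identifier. The coordinates of that table were used to find overlapping genes, although the authors' build is another. In the same gene table, 98.5% of Ler and 98.7% of Col-0 identifiers matched. Python 3.11.15 and SciPy 1.17.1 were used.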

Additional observations from a re-analysis of the deposited data

Results flagged for a closer look

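The ploidy change of 13 members differed between ecotypes by the Wald test of the difference itself, and each is given here as the Ler minus Col-0 difference of the log2 fold changes. It was positive for AAP2 (0.51 ± 0.15), CYP81K2 (1.94 ± 0.47), CYP81K1 (1.31 ± 0.37), AED1 (5.21 ± 0.33), AT5G10770 (0.98 ± 0.24), AT5G11070 (0.88 ± 0.27) and AT5G11230 (2.37 ± 0.53). It was negative for RUG1 (−0.68 ± 0.21), MSL2 (−0.45 ± 0.16), AT5G10800 (−1.08 ± 0.34), AT5G10960 (−0.47 ± 0.15), AT5G11240 (−0.59 ± 0.20) and HY5 (−0.88 ± 0.15). For RUG1, MSL2 and AT5G10800 neither ecotype had a call of its own. The smallest adjusted p belonged to AED1 (2.7e-52) and the largest to MSL2 (0.047).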

How the results depend on the processing

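No paired analysis was possible because the deposited tables hold no value for a single library, and for the same reason no replicate could be left out. Counts of members are given as total, higher and lower in the tetraploid where 3 stand together. In Ler a threshold of 0.01 left 3, with 1 higher, and at least 2-fold left 1, 1 and 0. In Col-0 the empirical null gave 14, 6 and 8, an adjusted p under 0.01 left 7 higher, and a change of at least 2-fold left 7, 1 and 6. The 25 nearest members on each side held 2, 1 and 1 calls in Ler and 3, 2 and 1 in Col-0, and the 10 nearest 1, 0 and 1 in Ler and 3, 2 and 1 in Col-0, by the authors' DESeq2 fit. Dropping the authors' filter, a minimum mean count of 10 and recentring kept the totals within 1.5 times in both tables. The 13 ecotype differences became 6 at 0.01, 5 under the empirical null and 0 among the 25 or 10 nearest on each side, where the Wald test gave 4 and 2 with an unadjusted p under 0.05. Members reaching the FLC value numbered 134 in Ler and 40 in Col-0, against 50 and 0 at a mean count of at least 100. In Col-0 3 did at a minimum of 10, a limit chosen after seeing the data. Gene order from the reference table gave the same 20 nearest genes in Col-0. Depth limited the nearest genes on the lower-numbered side.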
